A study of Mus musculus with 75 samples.

Results

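The 9 genes described here encode the nuclear receptors that tributyltin (TBT) is known to act through and the receptors that pair with them: the retinoid X receptors Rxra, Rxrb and Rxrg, the peroxisome proliferator-activated receptors Ppara, Ppard and Pparg, the liver X receptors Nr1h3 (LXRα) and Nr1h2 (LXRβ), and the farnesoid X receptor Nr1h4 (FXR). They were taken by gene symbol, 9 of the 55536 genes counted, and all 9 passed the filter on low counts in every comparison. Liver RNA came from C57Bl/6 mice labelled as male, whose dams drank water with vehicle or with TBT, an organotin compound, at a dose of 0.5 mg per kg per day (3.07 µM in the water) until the pups were weaned. No group carried any other treatment or a genetic change. At 3 weeks there were 7 vehicle and 8 TBT mice, with no risk label. At 5 months there were 8 vehicle mice, 16 TBT mice labelled low-risk and 10 labelled high-risk. At 10 months there were 6 vehicle and 5 low-risk TBT livers, 5 samples of uninvolved liver from high-risk TBT mice, and 7 tumors of TBT mice. What the risk labels of the 5-month mice rest on is not given, so it is unknown whether it was measured in these same livers.

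Nuclear receptors are transcription factors that lipophilic ligands switch on. An RXR binds DNA as the partner of PPARs, LXRs and FXR, so a ligand of RXR can act on the target genes of each pair. TBT is a ligand of the RXRs and of PPARγ. In liver, PPARα drives fatty acid oxidation in fasting, PPARγ is low in lean liver and known for lipid storage, the LXRs sense oxysterols and raise sterol export and fatty acid synthesis, and FXR senses bile acids and limits their synthesis.

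Some libraries stood apart or went against their labels. Total counts ran from 2.83 M to 45.4 M per library over 75 libraries. The 5-month vehicle 9 had the lowest total and 38206 genes detected, and 5 other libraries passed over 10% mitochondrial counts or over 35000 genes detected: high-risk 10 and 15 and low-risk 16 of 5 months, a library of 3-week vehicle mouse 3, and the 10-month vehicle library labelled as a tumor, which entered no comparison. The library labelled 3-week TBT 4 had Xist and Y-linked counts that went against its label as male (348.1 and 7.08 CPM). The library labelled 5-month low-risk 24 had both Xist (84.6 CPM) and Y-linked counts (237.2 CPM), which went against a single male mouse, and was the lowest low-risk library for Rxra, Ppara and Ppard and the highest for Nr1h3. A pair of libraries from 3-week vehicle mouse 3 was summed. Uninvolved livers 3 and 6 were treated as 1 sample in the same way, because their counts were far closer (chi-square per degree of freedom of 3.78) than those of the next closest pair within a group (14.9). All 6 uninvolved libraries were deeper (34.8 M to 44.6 M) than every low-risk (up to 33.5 M), vehicle (31.0 M) and tumor library (27.9 M) of 10 months. Their mitochondrial share, 4.2% to 5.8%, lay above the highest low-risk (3.1%), vehicle (3.8%) and tumor value (3.5%) among the libraries compared. They also had more genes detected (24676 or more) than these groups (up to 23868). Y-linked counts were 93.95 to 102.2 CPM in uninvolved libraries 3, 6 and 12 and 194.3 to 205.6 CPM in 1, 5 and 7. The part of this in the uninvolved comparisons was not tested. Labels do not tie mice to litters, so p-values measure the spread between these mice. Fewer cells of a type and less RNA per cell cannot be told apart in these bulk samples.

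Rxra was the most abundant of the 9 transcripts in every group, and Ppara, Nr1h4 and Nr1h3 followed it. Levels between genes are given as FPKM, fragments per kilobase of merged exons scaled to library size, computed here from the counts. In 3-week vehicles the means were 79.98 ± 10.2 FPKM for Rxra, 48.6 ± 12.6 for Ppara, 38.4 ± 7.0 for Nr1h4 and 35.96 ± 6.09 for Nr1h3 (SD, n = 7). The ranges of Ppara and Nr1h4, and of Nr1h4 and Nr1h3, overlapped there. A gap followed in each group but the 5-month vehicles: Nr1h2 (8.10 ± 0.90) and Rxrb (6.01 ± 1.07), lay below the whole range of Nr1h3. The ranges of Nr1h2 and Rxrb overlapped in 3-week vehicles and did not in 10-month low-risk or uninvolved livers. Pparg (2.13 ± 0.70), Ppard (1.87 ± 0.61) and Rxrg (1.48 ± 0.54) were lowest and overlapped. At 10 months the lower end was spread out. Tumors had 6.52 ± 2.52 FPKM of Pparg, a range that overlapped those of Nr1h2 and Rxrb, beside 1.59 ± 0.30 of Rxrg and 0.60 ± 0.11 of Ppard (SD, n = 7). In 10-month vehicles and uninvolved livers the mean of Nr1h4 exceeded that of Ppara, with overlapping ranges.

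**Figure D1:**
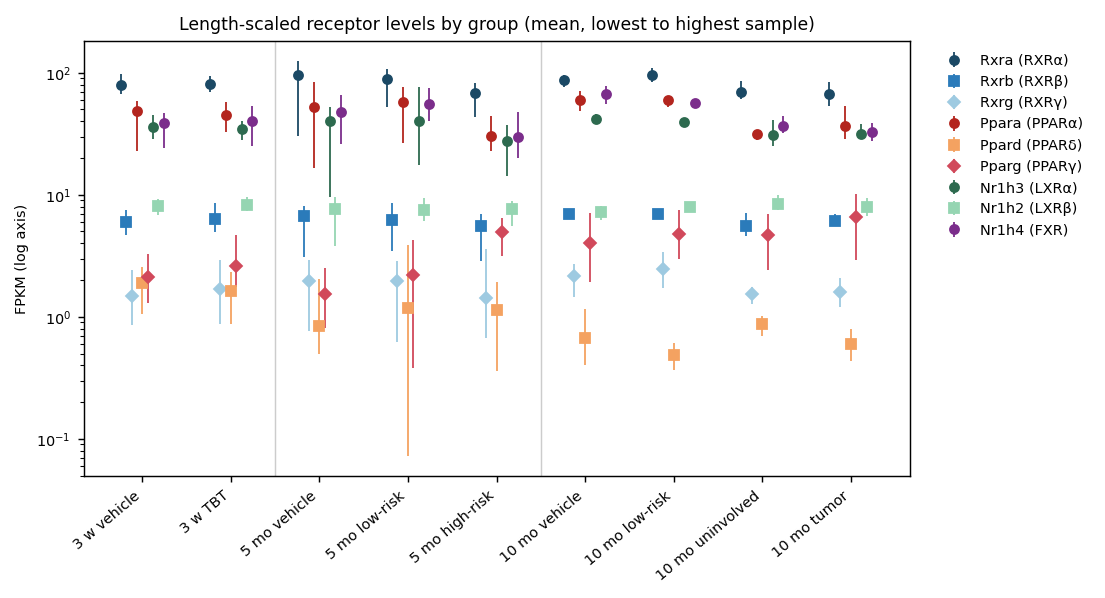
Level of each receptor gene as FPKM (log axis) in the 9 groups. Symbols are group means and bars run from the lowest to the highest sample. Rxra lies on top in each group (67.3 to 95.8 FPKM), and Ppard is lowest in each 10-month group (0.48 to 0.86 FPKM).

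Within each family a single member made up most of the length-scaled signal. Rxra held between 89.7% and 91.5% of the summed RXR signal in all 9 group means, and Nr1h3 held 77.8% to 85.3% of the LXR signal. Ppara held 94.1% ± 3.3 of the PPAR signal in 5-month low-risk livers (SD, n = 16) and 82.5% ± 5.3 in high-risk livers (SD, n = 10). The share of Pparg was 3.84% ± 2.22 and 14.2% ± 4.3 in these groups. The ranges of the Pparg share met only at their ends, 0.49% to 8.32% against 7.48% to 20.9%.

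In 5-month high-risk livers against low-risk livers, Pparg was higher and Ppara, Nr1h4, Nr1h3 and Rxra were lower. With edgeR's quasi-likelihood test and Benjamini-Hochberg adjustment over all genes, 5 of the 9 receptors passed an adjusted p of 0.05, 4 of them lower. Of all 14773 genes tested, 38.9% passed and 18.5% passed as lower. The median log2 fold change was -0.37 over the 9 receptors and -0.01 over all genes. Levels below are CPM, counts divided by the TMM-scaled library size in M counts.

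Pparg, the adipogenic receptor, had 1.13 CPM in the lowest low-risk liver, a median of 6.10 and 12.6 in the highest. In high-risk livers the lowest, median and highest values were 9.22, 15.05 and 19.2 CPM. All 10 high-risk livers lay above the low-risk mean and 7 lay above every low-risk liver. The log2 fold change was 1.18 ± 0.23 (SE; adjusted p = 0.000137, edgeR). For edgeR values, SE is the absolute log2 fold change divided by the square root of the F statistic, because the test itself gives none.

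Ppara, the receptor of fatty acid oxidation, had 102.3, 224.8 and 295.4 CPM as its lowest, median and highest low-risk values, and 87.1, 102.9 and 168.9 CPM in high-risk livers. All 10 high-risk livers lay below the low-risk mean, 5 of them below every low-risk liver and 8 below the other 15 without low-risk 24 (lowest 133.3 CPM). The log2 fold change was -0.93 ± 0.20 (SE; adjusted p = 0.000313, edgeR). Nr1h4, the bile acid receptor, had the smallest adjusted p of the 9. Its low-risk values were 92.2, 129.5 and 172.6 CPM, and its high-risk values 46.3, 66.5 and 110.0 CPM. Of the high-risk livers 9 of 10 lay below every low-risk liver, and high-risk 1, at 110.0 CPM, was the exception. The log2 fold change was -0.90 ± 0.14 (SE; adjusted p = 4.8e-06, edgeR).

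Nr1h3, the LXR that predominates in liver, had 44.2, 96.2 and 192.7 CPM in low-risk livers and 36.1, 71.8 and 94.03 CPM in high-risk livers. The groups overlapped widely, yet all 10 high-risk livers lay below the low-risk mean. The log2 fold change was -0.54 ± 0.18 (SE; adjusted p = 0.017, edgeR). Rxra, the common partner, had 286.5, 495.6 and 583.7 CPM in low-risk livers and 237.9, 373.3 and 452.9 CPM in high-risk livers. Its log2 fold change was -0.37 ± 0.14 (SE; adjusted p = 0.0281, edgeR), and it did not pass without the filter on low counts (adjusted p = 0.0728). None of the 9 receptors separated the groups without overlap, which 1.78% of all genes did.

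The other 4 receptors did not pass. Rxrb, the widely expressed RXR, had a log2 fold change of -0.15 ± 0.13 (SE), and Rxrg, the RXR of muscle and brain, -0.46 ± 0.24 (SE; adjusted p = 0.13, edgeR). Nr1h2, the ubiquitous LXR, was at 25.4 ± 3.7 CPM in low-risk livers (SD, n = 16) and 25.7 ± 3.2 in high-risk livers (SD, n = 10). Ppard, the widely expressed PPAR, spread from 0.54 to 29.3 CPM among low-risk livers and from 2.69 to 14.5 among high-risk livers, and its log2 fold change was -0.01 ± 0.37 (SE).

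**Figure D2:**
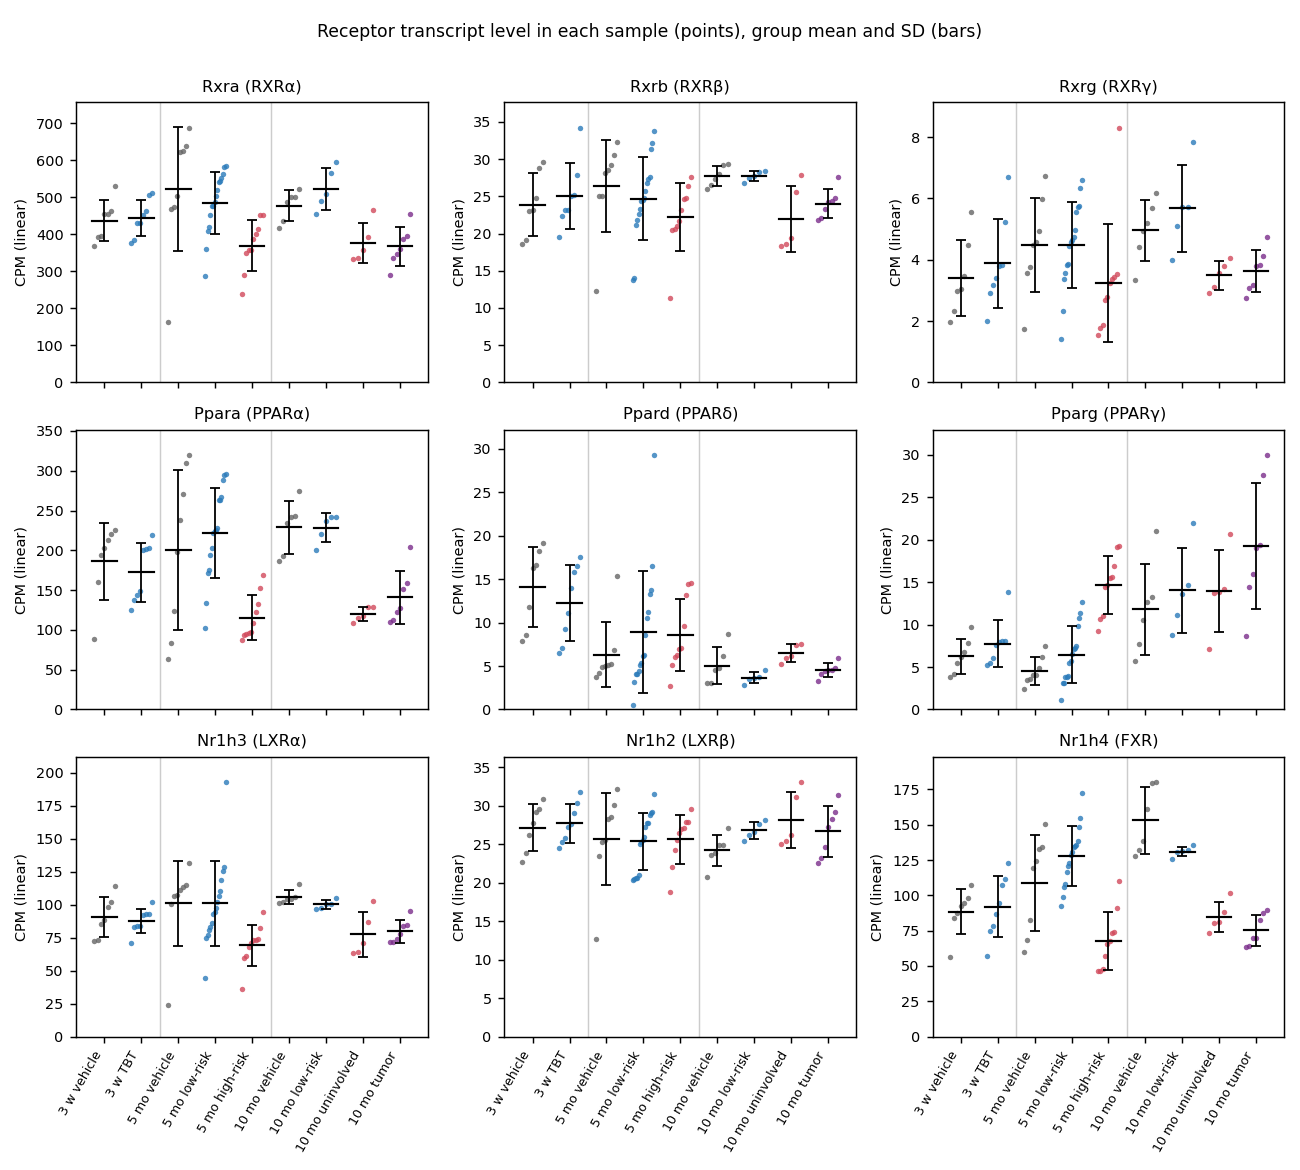
CPM of each receptor gene in every sample (points, linear axes from 0) by group, with the group mean and SD as bars. At 5 months the high-risk points of Pparg lie mostly above and those of Ppara and Nr1h4 mostly below the low-risk points. At 10 months no uninvolved point of Ppara or Nr1h4 reaches a low-risk point.

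The 5-month livers came from 2 sequencing batches, with batch as a covariate in the fit. The authors had already adjusted the counts with ComBat-seq, a batch adjustment, so the fits within a batch also rest on adjusted counts. Within batch 2 (7 high-risk and 10 low-risk livers) the log2 fold changes were -0.83 for Ppara (adjusted p = 0.00119), 1.17 for Pparg (0.0012), -0.80 for Nr1h4 (0.000364), -0.54 for Nr1h3 (0.0181) and -0.32 for Rxra (0.0696), by edgeR. Within batch 1 (3 high-risk and 6 low-risk livers) Nr1h4 passed (-1.08, adjusted p = 0.0355). Ppara (-1.11, adjusted p = 0.152), Pparg (1.22, 0.135), Nr1h3 (-0.52, 0.516) and Rxra (-0.48, 0.447) kept their sign there and did not pass, by edgeR. Without the technically deviating libraries all 5 calls held, with log2 fold changes of 1.15 for Pparg, -0.88 for Ppara, -0.81 for Nr1h4, -0.51 for Nr1h3 and -0.29 for Rxra. Without low-risk 24 all 5 calls held too, with 1.17 for Pparg (adjusted p = 0.000216), -0.97 for Ppara (0.000101), -0.91 for Nr1h4 (3.91e-06), -0.42 for Nr1h3 (0.0329) and -0.41 for Rxra (0.0115), by edgeR. Ppard, lowest in that library at 0.54 CPM, then had -0.09 (adjusted p = 0.861, edgeR). Against vehicles the same 3 receptors passed without it, and 0 receptors passed for low-risk against vehicle livers.

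RefSeq promoter windows of 300 bases (250 before and 50 after an annotated start, build GRCm38.p6) were read for all 9 genes, 15 windows in all. All 5 windows of the 3 receptors with the largest 5-month differences are shown because these genes moved in opposite directions. Capitals mark matches, on either strand, to AGGTCA (the core motif of nuclear receptors, found in 16.3% of 32851 promoter windows), TATAAA (13.6%), GGGCGG (35.7%), CCAAT (37.4%) or CACGTG (7.15%). These motifs do not overlap each other in the windows printed. A match describes letters only.
Ppara, chr15:85735526-85735825, plus strand: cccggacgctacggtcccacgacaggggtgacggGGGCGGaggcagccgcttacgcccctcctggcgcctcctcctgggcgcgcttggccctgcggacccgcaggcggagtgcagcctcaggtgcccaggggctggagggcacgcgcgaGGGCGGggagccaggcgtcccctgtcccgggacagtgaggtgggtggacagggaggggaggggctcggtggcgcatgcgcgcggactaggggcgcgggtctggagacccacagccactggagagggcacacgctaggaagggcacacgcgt
Nr1h4, chr10:89506609-89506908, minus strand: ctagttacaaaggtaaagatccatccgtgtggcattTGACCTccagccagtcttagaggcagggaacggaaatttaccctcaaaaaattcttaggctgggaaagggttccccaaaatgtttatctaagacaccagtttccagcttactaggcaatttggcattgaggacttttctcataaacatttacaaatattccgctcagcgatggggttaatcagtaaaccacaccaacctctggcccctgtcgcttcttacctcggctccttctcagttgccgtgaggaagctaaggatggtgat
Pparg, upstream start, chr6:115360894-115361193, plus strand: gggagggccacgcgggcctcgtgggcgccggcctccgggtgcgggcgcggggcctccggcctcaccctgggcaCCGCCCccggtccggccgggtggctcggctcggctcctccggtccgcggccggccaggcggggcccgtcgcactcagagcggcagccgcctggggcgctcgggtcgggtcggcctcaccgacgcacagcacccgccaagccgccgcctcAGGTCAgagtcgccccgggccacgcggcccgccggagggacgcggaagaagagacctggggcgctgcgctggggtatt
Pparg, middle start, chr6:115362099-115362398, plus strand: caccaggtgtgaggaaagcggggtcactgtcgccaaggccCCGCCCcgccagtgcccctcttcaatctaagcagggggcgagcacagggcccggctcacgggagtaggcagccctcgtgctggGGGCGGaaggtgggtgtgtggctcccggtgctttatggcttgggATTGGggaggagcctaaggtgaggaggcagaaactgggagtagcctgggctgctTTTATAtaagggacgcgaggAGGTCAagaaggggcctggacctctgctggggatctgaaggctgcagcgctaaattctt
Pparg, downstream start, chr6:115421816-115422115, plus strand: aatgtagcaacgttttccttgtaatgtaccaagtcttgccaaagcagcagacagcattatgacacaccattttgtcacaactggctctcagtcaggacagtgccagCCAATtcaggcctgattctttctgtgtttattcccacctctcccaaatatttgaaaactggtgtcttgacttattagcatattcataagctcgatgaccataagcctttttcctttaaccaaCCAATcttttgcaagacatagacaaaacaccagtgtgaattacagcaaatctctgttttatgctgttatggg

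The Ppara window had 74.7% G and C with 30 CpG dinucleotides and 2 GGGCGG matches, against medians of 52.7% and 7 over all windows. The Nr1h4 window had 45.7% and 7 CpGs, with 1 AGGTCA match on the opposite strand. The windows of Pparg differed from each other: 80.3% and 44 CpGs at the upstream start, with 1 AGGTCA and 1 GGGCGG match, 62.7% and 13 CpGs at the middle start, with 1 AGGTCA, 1 TATAAA, 2 GGGCGG and 1 CCAAT match, and 40.3% and 2 CpGs at the downstream start, with 2 CCAAT matches. Gene counts do not tell which Pparg start was used. In the annotation (GENCODE M21, GRCm38), Ppara spans chr15:85734983-85802819, Pparg chr6:115360951-115490399 and Nr1h4 chr10:89454234-89533585. Rxra spans chr2:27676440-27762957 and Nr1h3 chr2:91184061-91202834, where 34 of its exon bases (1.35%) also belong to Gm13783 on the same strand.

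Against 5-month vehicles, Pparg was higher and Ppara and Nr1h4 were lower in high-risk livers, and 3 of the 9 receptors passed, 2 of them lower, where 15.8% of all genes passed and 7.38% as lower. This comparison shares its high-risk livers with the comparison above. Pparg ran from 2.40 to 7.44 CPM in vehicles, with a median of 4.07, and did not overlap the high-risk range, which held for 0.291% of all genes. For Pparg the log2 fold change was 1.59 ± 0.32 (SE; adjusted p = 0.00124, edgeR). Ppara spread from 63.2 to 319.7 CPM among vehicles, so that no high-risk liver lay below all of them, and its log2 fold change was -0.77 ± 0.25 (SE; adjusted p = 0.0286, edgeR). Nr1h4 ran from 60.1 to 150.7 CPM in vehicles, and its log2 fold change was -0.66 ± 0.17 (SE; adjusted p = 0.00906, edgeR).

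Vehicle 9 had the lowest Rxra, Rxrb, Nr1h2, Nr1h3, Nr1h4 and Ppara and the highest Ppard of the 8 vehicles. Rxra (log2 fold change -0.43, adjusted p = 0.0914; 0.0366 without the batch covariate) and Nr1h3 (-0.52, 0.12) did not pass with it, and both passed in edgeR without the deviating libraries (-0.38, adjusted p = 0.0348, and -0.47, 0.041). Within batch 1 (3 high-risk and 7 vehicle livers) 0 of the 9 receptors and 0 of all genes passed. The log2 fold changes there were 1.58 for Pparg (adjusted p = 0.129), -0.85 for Ppara (0.414) and -0.71 for Nr1h4 (0.262), by edgeR. Batch 2 held 1 vehicle and gave no value. With only these groups in the fit, or without the filter on low counts, Ppara did not pass (adjusted p = 0.0745 and 0.103, edgeR).

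Low-risk TBT livers and vehicles were not told apart by any of the 9 receptors at 5 months. In edgeR 0 receptors and 0 genes (0.0%) passed, 934 genes had an unadjusted p under 0.05, and DESeq2 called 52 genes and 0 receptors. Means of Pparg were 6.44 ± 3.33 CPM in low-risk livers (SD, n = 16) and 4.52 ± 1.63 in vehicles (SD, n = 8), a log2 fold change of 0.41 ± 0.29 (SE). Nr1h4 had 127.7 ± 21.1 CPM in low-risk livers and 108.9 ± 33.9 in vehicles, a log2 fold change of 0.24 ± 0.16 (SE).

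At 10 months, uninvolved liver of high-risk mice had less Ppara, Nr1h4, Nr1h3 and all 3 RXR transcripts than low-risk liver, and more Ppard. In edgeR 7 of the 9 receptors passed, 6 of them lower, where 52.4% of all 16338 genes passed and 24.7% as lower. The median log2 fold change was -0.38 over the receptors and 0.05 over all genes. The uninvolved libraries were deeper than the low-risk ones, as given above. Ppara, Nr1h4 and Ppard did not overlap between the groups, as 29.8% of all genes did not.

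Ppara was at 108.1, 115.1, 117.4, 129.0 and 129.3 CPM in uninvolved livers and at 199.8, 220.4, 237.3, 241.8 and 242.4 CPM in low-risk livers. Each uninvolved liver lay far below the lowest low-risk liver, and the log2 fold change was -0.95 ± 0.11 (SE; adjusted p = 3.1e-06, edgeR). Nr1h4 was at 73.6, 80.5, 81.0, 88.2 and 101.6 CPM in uninvolved livers and at 125.6, 130.8, 131.2, 132.0 and 135.3 CPM in low-risk livers. The low-risk values were close together (CV 2.64%), and the log2 fold change was -0.64 ± 0.11 (SE; adjusted p = 0.000145, edgeR). Ppard was at 5.27, 5.98, 6.21, 7.44 and 7.59 CPM in uninvolved livers and at 2.76, 3.53, 3.67, 3.70 and 4.55 CPM in low-risk livers. For Ppard the log2 fold change was 0.82 ± 0.24 (SE; adjusted p = 0.00868, edgeR).

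Rxra was at 334.3, 336.9, 358.3, 394.1 and 464.6 CPM in uninvolved livers and at 455.5, 489.8, 509.7, 565.2 and 594.7 CPM in low-risk livers. Only uninvolved liver 12 reached the low-risk range, and the log2 fold change was -0.48 ± 0.11 (SE; adjusted p = 0.00142, edgeR). Rxrg, at 3.50 ± 0.47 against 5.68 ± 1.41 CPM (SD, n = 5 each), had a log2 fold change of -0.71 ± 0.18 (SE; adjusted p = 0.00364, edgeR). Rxrb (-0.35 ± 0.11, SE; adjusted p = 0.0108) and Nr1h3 (-0.38 ± 0.11, SE; adjusted p = 0.00793) were also lower by edgeR. Uninvolved liver 12 for Nr1h3 (103.0 CPM) and the sum of 3 and 6 for Rxrb (27.9 CPM) lay within the low-risk range, and the other 4 lay below it. Pparg was at 13.9 ± 4.8 CPM in uninvolved livers and 14.02 ± 5.0 in low-risk livers (SD, n = 5 each), and its log2 fold change was -0.02 ± 0.32 (SE). Nr1h2 had a log2 fold change of 0.06 ± 0.09 (SE).

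Against 10-month vehicles, which share the uninvolved livers, 7 of the 9 receptors passed in edgeR, 6 of them lower, where 57.7% of all genes passed and 26.5% as lower. Ppara was at 186.7, 192.6, 234.1, 241.7, 243.6 and 273.9 CPM in the vehicles, and its log2 fold change was -0.95 ± 0.10 (SE; adjusted p = 1.3e-06, edgeR). Nr1h4 was at 127.7, 132.1, 138.6, 161.2, 179.3 and 180.1 CPM in the vehicles, with a log2 fold change of -0.86 ± 0.11 (SE; adjusted p = 3.9e-06, edgeR). These 2 genes did not overlap between the groups, as 30.8% of all genes did not. Rxra (-0.35), Rxrb (-0.35), Rxrg (-0.51) and Nr1h3 (-0.46) were lower, with adjusted p of 0.0081, 0.00753, 0.0185 and 0.00148 by edgeR. None of them passed with the tumor-labelled vehicle library added (adjusted p of 0.155 to 0.247, edgeR).

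Nr1h2 was the only receptor that passed as higher, with 28.2 ± 3.7 CPM in uninvolved livers (SD, n = 5) and 24.2 ± 2.1 in vehicles (SD, n = 6). Its log2 fold change was 0.21 ± 0.09 (SE; adjusted p = 0.0469, edgeR), and it did not pass when any of vehicles 1, 2, 4, 5 or 6, uninvolved liver 12 or the sum of 3 and 6 was left out (0.15 to 0.22, adjusted p of 0.0578 to 0.118), with RLE size factors (0.21, adjusted p = 0.0501), without the filter on low counts (0.18, adjusted p = 0.177) or with the tumor-labelled vehicle library added (0.28, adjusted p = 0.0745). Ppard, at 0.36 ± 0.22 (SE; adjusted p = 0.18, edgeR), passed without vehicle 5, which had 8.66 CPM (0.59, adjusted p = 0.0163).

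**Figure D3:**
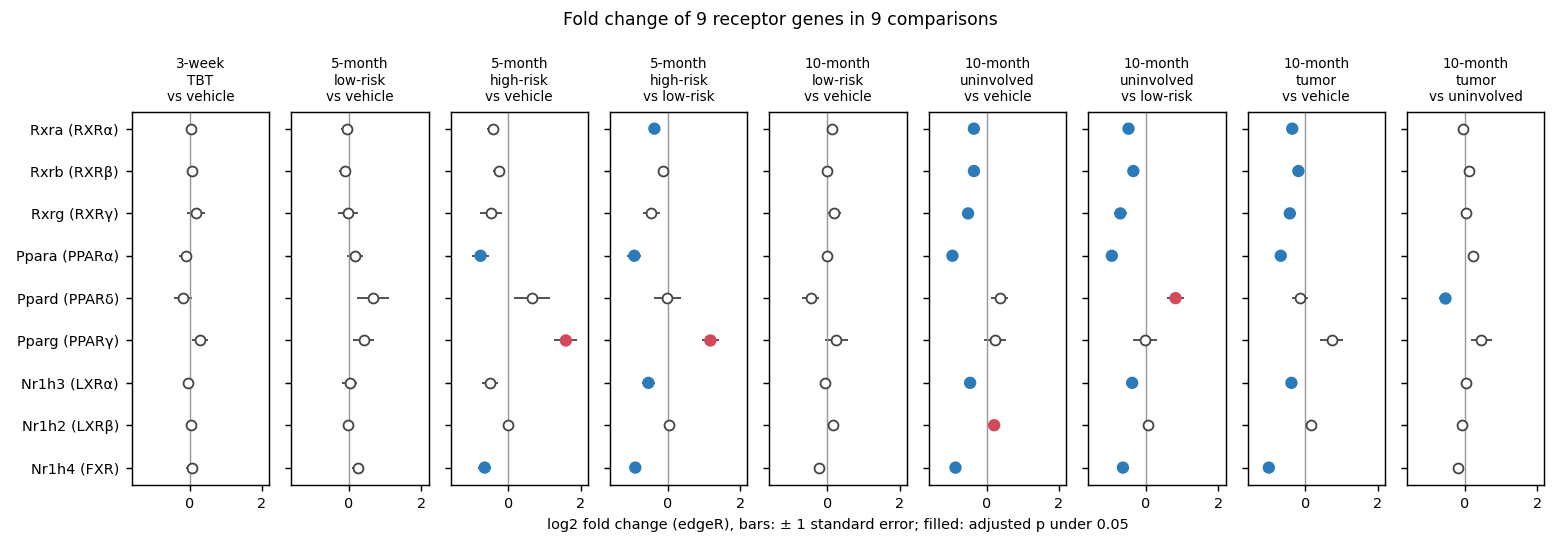
Log2 fold change of the 9 receptor genes in 9 comparisons, with bars of 1 SE (derived from the F statistic) and filled symbols for an adjusted p under 0.05 (edgeR). Ppara and Nr1h4 are filled on the left in all 5 comparisons of high-risk, uninvolved or tumor tissue with low-risk or vehicle liver, and no receptor is filled in the comparisons of 3-week TBT or low-risk livers with vehicles. Pparg is filled on the right at 5 months only, and that difference between ages did not pass its own test.

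Tumors had lower Nr1h4, Ppara, Nr1h3, Rxra, Rxrg and Rxrb than 10-month vehicle livers. In edgeR 6 of the 9 receptors passed, all 6 lower, where 45.9% of 15293 genes passed and 21% as lower. Nr1h4 was at 63.4, 70.03 and 89.3 CPM (lowest, median, highest) in tumors. All 7 tumors lay below every vehicle, and the log2 fold change was -1.01 ± 0.11 (SE; adjusted p = 1.5e-05, edgeR). Nr1h3 was at 71.6, 77.6 and 95.3 CPM in tumors and 101.3 to 115.5 CPM in vehicles, also without overlap, with a log2 fold change of -0.39 ± 0.07 (SE; adjusted p = 0.000548, edgeR). That groups did not overlap held for 20.4% of all genes.

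Ppara was at 110.3, 127.7 and 204.6 CPM in tumors, with 6 of 7 below every vehicle and tumor 12 within their range. Its log2 fold change was -0.68 ± 0.15 (SE; adjusted p = 0.00151, edgeR). Rxra (-0.36, adjusted p = 0.00873), Rxrg (-0.43, 0.0369) and Rxrb (-0.19, 0.0213) were lower by edgeR. Rxrb did not pass without tumor 5 or tumor 7 (-0.17, adjusted p = 0.054, and -0.16, 0.0647), nor Rxrg without any of tumors 1, 3, 5, 7 and 11 or vehicles 2, 4, 6 and 7 (-0.44 to -0.36, adjusted p of 0.0512 to 0.0956). Rxrb and Rxrg also failed without the filter on low counts (adjusted p = 0.0849 and 0.0636), and Rxrb with all 10-month groups in 1 fit (0.0809, edgeR). With the tumor-labelled vehicle library added, Rxrb (0.515), Rxrg (0.309), Rxra (0.106) and Nr1h3 (0.194) did not pass (adjusted p, edgeR). Pparg was at 8.62, 19 and 29.95 CPM in tumors and 5.70, 11.5 and 20.98 in vehicles. Its log2 fold change of 0.72 ± 0.31 (SE) did not pass in edgeR (adjusted p = 0.0736), and it passed without vehicle 2 (0.96, adjusted p = 0.0178) or without tumor 7 (0.87, 0.0237).

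Between tumors and uninvolved liver only Ppard passed, 1 of 9 receptors where 18.1% of 16362 genes passed. Tumors had 3.28, 4.50 and 5.93 CPM of Ppard. All 7 tumors lay below the uninvolved mean of 6.50 CPM and 6 below every uninvolved liver. The log2 fold change was -0.55 ± 0.16 (SE; adjusted p = 0.0291, edgeR). With the mouse as a replicate block it was -0.51 (6 mice, adjusted p = 0.0423, edgeR) or, without mice 3 and 6, -0.55 (adjusted p = 0.0532). The fit of 6 mice took uninvolved livers 3 and 6 as separate samples, although they were summed as 1 elsewhere. It did not pass without any of tumors 1, 5 and 11 or uninvolved livers 5 and 7 (-0.54 to -0.48, adjusted p of 0.0533 to 0.0854). Ppara, Nr1h4 and Pparg had log2 fold changes of 0.22 ± 0.15, -0.19 ± 0.12 and 0.46 ± 0.29 (SE) between these tissues.

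At 3 weeks, when exposure had just ended, TBT and vehicle livers had similar levels of the receptors. In edgeR 0 of 9 receptors and 0 of 14050 genes (0.0%) passed, 474 genes had an unadjusted p under 0.05, and DESeq2 called 2 genes and 0 receptors. Pparg, with a log2 fold change of 0.30 ± 0.22 (SE), was at 5.21, 7.79 and 13.8 CPM in TBT livers and 3.84, 6.21 and 9.69 in vehicles. The other 8 receptors had log2 fold changes between -0.20 and 0.18. Without TBT 4, whose sex genes went against its label, 0 receptors passed as well.

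Low-risk TBT livers of 10 months also gave 0 of 9 receptors and 0 genes (0.0%) against vehicles in edgeR, with 688 genes at an unadjusted p under 0.05 and 1 gene and 0 receptors by DESeq2. Nr1h4 was the only receptor at an unadjusted p under 0.05 (0.0448). Its log2 fold change was -0.22 ± 0.10 (SE), and all 5 low-risk livers lay below the vehicle mean.

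The high-risk difference was set against itself at both ages. The change of the difference (uninvolved minus low-risk at 10 months, less high-risk minus low-risk at 5 months) was tested as an interaction in edgeR, and 0 of 9 receptors passed, where 0.448% of 16084 genes did (72 genes, 231 by DESeq2, and 208 by edgeR without low-risk 24, again with 0 receptors), with 1 receptor and 1945 genes at an unadjusted p under 0.05. For Ppara, with -0.93 at 5 months and -0.95 at 10 months, the interaction was -0.02 ± 0.25 (SE). For Pparg, with 1.18 and -0.02, it was -1.19 ± 0.43 (SE; adjusted p = 0.233). For Ppard, with -0.01 and 0.82, it was 0.84 ± 0.62 (SE; adjusted p = 0.619). For Nr1h4 it was 0.26 ± 0.21 (SE).

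Among vehicles of batch 1, Ppard fell from 3 weeks to 5 months and Pparg rose from 5 to 10 months. In 3-week vehicles Ppard was at 7.91, 16.2 and 19.1 CPM, and 6 of 7 vehicles of 5 months lay below all of these, vehicle 9 (15.37 CPM) being the exception. The log2 fold change was -1.22 ± 0.32 (SE; adjusted p = 0.00828, edgeR). It was the only receptor of 9 to pass, where 24.2% of genes did. Pparg had a mean of 4.46 CPM at 5 months (n = 7) and 11.8 ± 5.3 at 10 months (SD, n = 6), with a log2 fold change of 1.37 ± 0.29 (SE; adjusted p = 0.00505, edgeR), again 1 of 9, where 14.1% of genes passed. Nr1h4 was at 105.3 and 153.2 CPM, and its log2 fold change of 0.51 ± 0.17 (SE) just missed (adjusted p = 0.0507, edgeR; 0.0262 by DESeq2). Without the deviating libraries, vehicle 9 among them, Rxra also passed as higher at 5 months than at 3 weeks (0.38, adjusted p = 0.00307) and lower at 10 months than at 5 (-0.30, adjusted p = 0.0325), as did Nr1h3 as higher at 5 months (0.24, adjusted p = 0.0215).

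Ratios of receptors counted in the same library do not depend on the scaling of libraries. Depth still enters through the 0.5 added to each count and the noise of low counts. The log2 ratios Ppara/Pparg, Ppara/Ppard, Nr1h3/Nr1h2 and Rxra/Rxrb were compared in the 9 comparisons within an age by two-sided permutation tests, exact where both groups had under 10 samples, and 14 of 36 passed after Benjamini-Hochberg adjustment over the 36. The length of the genes does not enter, so a ratio shows unequal change only. These tests took no account of batch. Batch 2 held 7 of 10 high-risk, 10 of 16 low-risk and 1 of 8 vehicle livers of 5 months, so group and batch are mixed there.

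The Ppara/Pparg ratio was lower in high-risk livers at 5 months. In 5-month low-risk livers the log2 ratio was 3.79, 5.21 and 7.95 (lowest, median, highest), and in high-risk livers 2.19, 2.82 and 3.98. Of the high-risk livers 8 of 10 lay below every low-risk liver. The difference in means was -2.28 (permutation p = 2e-05, the smallest that 100000 resamples can give, adjusted p = 0.00072), and -2.35 against vehicles (permutation, adjusted p = 0.00411). Within batch 2 the difference from low-risk livers was -2.09 (permutation, adjusted p = 0.00123). Within batch 1 it was -2.57, and -2.27 against vehicles (exact, adjusted p = 0.143 for both). There the high-risk livers (2.65, 3.09 and 3.34) lay below every low-risk liver (lowest 4.55) and every vehicle (lowest 3.495). Each exact p was thus the smallest that these group sizes allow, so not passing within batch 1 says little.

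At 10 months the Ppara/Pparg ratio was 2.64, 2.97, 3.06, 3.18 and 4.04 in uninvolved livers and 3.32, 4.05, 4.15, 4.41 and 4.51 in low-risk livers, a difference of -0.91 (exact, adjusted p = 0.0408). It was lower than in vehicles by 1.21 on the log2 scale, a difference of -1.21 (exact, adjusted p = 0.0283), and in tumors the difference from vehicles was -1.44 (exact, adjusted p = 0.0152). The first of these did not pass when any of low-risk livers 2, 4, 8 and 9, uninvolved livers 1, 5 and 12 or the sum of 3 and 6 was left out (-0.92 to -0.78, exact, adjusted p = 0.0762). The second did not pass without uninvolved liver 1, 5, 12 or the sum of 3 and 6 (exact, adjusted p = 0.0527).

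The Ppara/Ppard ratio passed in 3 of the 5 comparisons at 10 months. It was 3.83, 3.98, 4.21, 4.43 and 4.61 in uninvolved livers and 5.59, 5.75, 6.01, 6.09 and 6.45 in low-risk livers, without overlap, a difference of -1.76 (exact, adjusted p = 0.0283). The difference from vehicles was -1.38 (exact, adjusted p = 0.0195). All 7 tumors lay above all 5 uninvolved livers, a difference of 0.74 (exact, adjusted p = 0.0152). Tumors did not pass against vehicles (-0.64, exact, adjusted p = 0.128; -0.81, adjusted p = 0.026 without tumor 12), nor did low-risk livers (0.38, exact, adjusted p = 0.377). At 5 months the difference of high-risk from low-risk livers was -1.13 (permutation, adjusted p = 0.0541). It passed without the deviating libraries (-1.02, permutation, adjusted p = 0.048) or with 5 added to the counts (-1.06, permutation, adjusted p = 0.0493), and was -0.97 without low-risk 24 (permutation, adjusted p = 0.0847). Within batches it was -0.88 (batch 1, exact, adjusted p = 0.903) and -1.26 (batch 2, permutation, adjusted p = 0.0291). High-risk livers against vehicles gave -1.05 (permutation, adjusted p = 0.151), -0.80 within batch 1 (exact, adjusted p = 0.903) or -1.17 without the deviating libraries (permutation, adjusted p = 0.044).

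The LXR pair shifted toward Nr1h2. The log2 ratio Nr1h3/Nr1h2 was 1.94 ± 0.45 in 5-month low-risk livers (SD, n = 16) and 1.40 ± 0.26 in high-risk livers (SD, n = 10), a difference of -0.54 (permutation, adjusted p = 0.0137), or -0.47 without low-risk 24 (permutation, adjusted p = 0.0152), with -0.53 within batch 2 (permutation, adjusted p = 0.00699) and -0.55 within batch 1 (exact, adjusted p = 0.5). Against vehicles the difference was -0.48 (permutation, adjusted p = 0.036), and -0.46 within batch 1 (exact, adjusted p = 0.5). At 10 months it was 1.27, 1.36, 1.48, 1.48 and 1.64 in uninvolved livers and 1.80, 1.84, 1.88, 1.98 and 2.0 in low-risk livers, without overlap, a difference of -0.46 (exact, adjusted p = 0.0283). Vehicles were at 1.95, 2.03, 2.06, 2.15, 2.28 and 2.29. Differences from them were -0.68 in uninvolved livers (exact, adjusted p = 0.0195), -0.54 in tumors (exact, adjusted p = 0.0137) and -0.23 in low-risk livers (exact, adjusted p = 0.036). The last was the only ratio that passed between low-risk or 3-week TBT livers and vehicles. It did not pass when any of vehicles 1, 2, 4, 5 and 6 or low-risk livers 2, 4, 8 and 9 was left out (-0.25 to -0.20, exact, adjusted p of 0.0527 to 0.0735). The Rxra/Rxrb ratio passed in none of the 9 comparisons. Of the alternatives run, it passed without tumor 7, for tumors against uninvolved livers (-0.26, exact, adjusted p = 0.0478) and against vehicles (-0.25, exact, adjusted p = 0.0325), and without low-risk 24, for high-risk against low-risk livers (-0.28, permutation, adjusted p = 0.042).

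**Figure D4:**
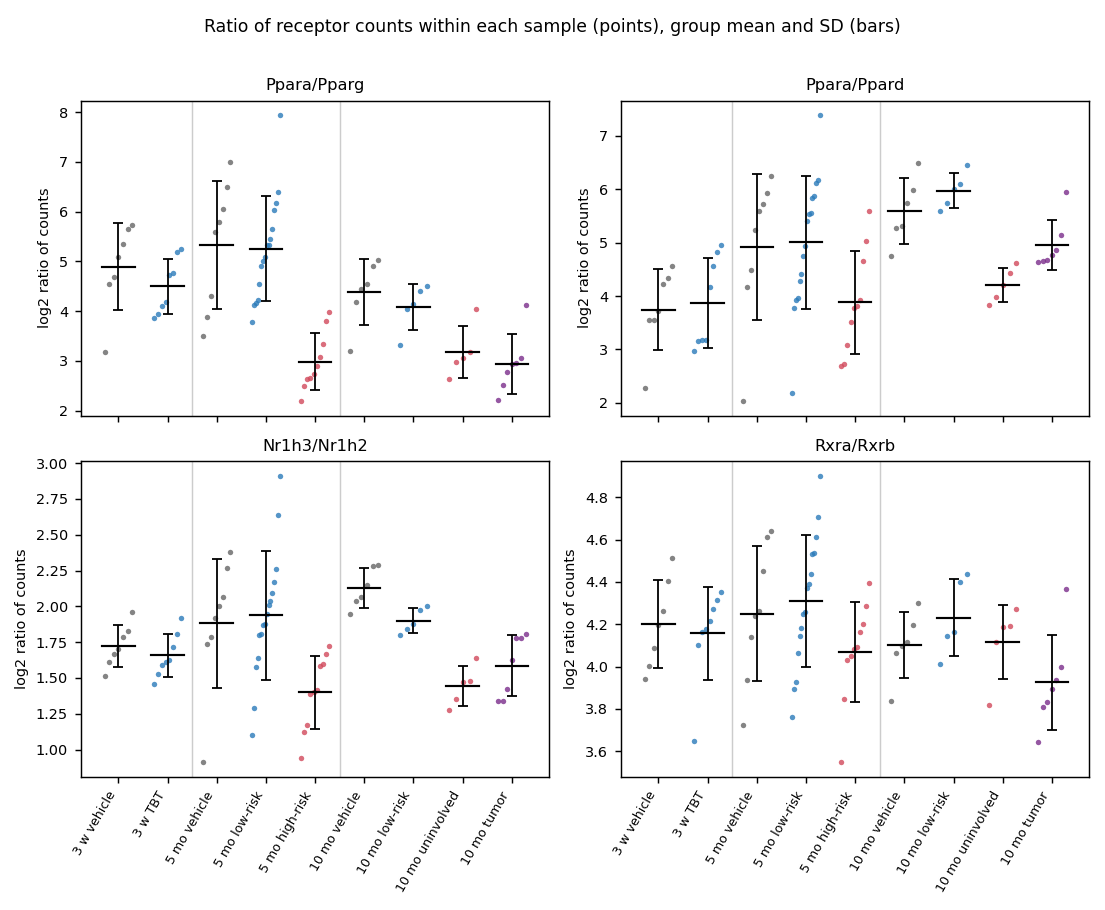
Log2 ratio of the counts of receptor pairs within each sample (points), with group mean and SD as bars. The mean of Ppara/Pparg is lower in high-risk, uninvolved and tumor samples than in low-risk and vehicle samples of the same age, with overlapping samples. The mean of Rxra/Rxrb stays between 3.93 and 4.31 in all groups.

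Other genes of these pathways were read from 8 lists, 4 of them targets of PPARα, PPARγ, LXR and FXR and 4 of genes that work with the receptors. In 5-month high-risk against low-risk livers, 6 of 8 tested PPARγ targets passed as higher and 1 as lower, with a median log2 fold change of 1.96, where 3005 of 14773 genes passed as higher and 2740 as lower (median -0.01). At 3 weeks 6 of these targets passed the filter on low counts, and 7 among vehicles across ages. Targets let in through high-risk tissue can hardly pass as lower, so the counts at 5 and 10 months may lean toward higher. Lpl, the lipase that frees fatty acids from lipoproteins, rose by 2.71 ± 0.22 (log2, SE; adjusted p = 3.6e-10, edgeR), from 32.7 to 229.7 CPM. Cidec, a protein of lipid droplets, rose by 3.01 ± 0.40, and G0s2, an inhibitor of lipolysis, had -1.97 ± 0.48 (log2, SE). Adipocyte markers hold Adipoq and Plin1 of this list of 10. Their summed CPM over 5 genes ran from 0.0583 to 29.9 in high-risk livers and from 0.0589 to 3.82 in low-risk livers, and 1 of the 5 passed the filter. Their part in the result was not tested.

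The PPARα targets did not move one way: 4 of 18 passed as higher and 2 as lower, with a median of -0.00. Ehhadh (1.18 ± 0.27), of peroxisomal fatty acid oxidation, and the hormone Fgf21 (1.25 ± 0.36) were higher and Fabp1 (-1.16 ± 0.26), the fatty acid binding protein of liver, was lower (log2, SE). Of 9 FXR targets, 7 passed as lower and 2 as higher, with a median of -0.79. The list holds genes that FXR is known to raise, such as Nr0b2 and Abcb11, and genes it is known to lower, such as Slc10a1 and Cyp8b1. Slc10a1, the bile acid uptake carrier, fell by 1.68 on the log2 scale (from 676.1 to 215.7 CPM) and Baat, which conjugates bile acids, fell by 0.98. Slc51b, a bile acid exporter, was at 0.49 CPM in low-risk and 2.43 in high-risk livers, a log2 fold change of 2.19 ± 0.47 (SE). Its low-risk level was near the floor as well. Of 13 LXR targets 5 passed as lower and 1 as higher (median -0.29). Scd1, a fatty acid desaturase, had -1.24 ± 0.29 and Apoe -0.62 ± 0.16, whereas the sterol exporter Abcg1 had 0.69 ± 0.12 (log2, SE).

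Of 12 tested genes of retinoid handling, which supply and use the ligand family of the RXRs, 7 passed as lower and 2 as higher, with a median of -0.48. Rbp4, the retinol carrier of blood, fell by 0.78 and Rdh11, a retinal reductase, fell by 1.05 on the log2 scale. Aldh1a2, which makes retinoic acid, was at 0.21 CPM in low-risk and 1.03 in high-risk livers, a log2 fold change of 2.18 ± 0.49 (SE). At that low-risk level, near the floor, it could hardly pass as lower, and the filter on low counts favored its call as higher. Among 9 other partners of RXR, 3 were higher and 3 lower. Nr4a1, an orphan receptor induced by stress signals, rose from 2.38 to 10.1 CPM (2.10 ± 0.30), and Nr1i3, the xenobiotic receptor CAR, dropped from 36.7 to 8.68 CPM (-2.19 ± 0.41; log2, SE). Of 12 coactivators 1 passed in each direction, with Ppargc1a at 0.80 ± 0.22 and Kat2b at -0.32 ± 0.10. Of 9 corepressors 2 were lower, Nr0b2 (-0.79 ± 0.29) and Sirt1 (-0.32 ± 0.12; log2, SE). Without low-risk 24, Nr0b2 did not pass (-0.71, adjusted p = 0.0509, edgeR). The counts were then 5 of 7 PPARγ targets higher, 6 of 9 FXR targets and 6 of 13 LXR targets lower, and the same as above for PPARα targets and retinoid genes.

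In uninvolved against low-risk liver at 10 months, where 4520 of 16338 genes passed as higher and 4041 as lower (median 0.05), 7 of 18 PPARα targets passed as lower and 0 as higher. The median was -0.35. Fabp1 had -0.97 ± 0.25 and Slc25a20, the carnitine carrier of mitochondria, -0.60 ± 0.12 (log2, SE). Of 8 PPARγ targets 3 were higher and 1 lower, Lpl (2.51 ± 0.19) and Cidec (2.50 ± 0.43) among the former (log2, SE), while Pparg itself did not pass. Of 10 FXR targets 5 were lower and 1 higher, of 12 retinoid genes 6 lower and 2 higher, and of 13 LXR targets 2 in each direction. Pltp, the phospholipid transfer protein, fell by 1.79 on the log2 scale. Coactivators passed 5 times as higher and 1 time as lower out of 12, with Kat2b at -0.71 ± 0.08 and Crebbp at 0.50 ± 0.12. Of 9 corepressors 2 were higher and 1 lower, with Gps2 at 0.58 ± 0.09 (log2, SE).

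In tumors against vehicles, where 3800 of 15293 genes passed as higher and 3216 as lower, 7 of 10 PPARγ targets passed as higher and 1 as lower (median 2.70), and 8 of 18 PPARα targets as lower with 1 higher (median -0.42). Cidec rose from 3.92 to 64.1 CPM (4.04 ± 0.47) and Lpl from 19.6 to 176.4 CPM (3.19 ± 0.27), and G0s2 was the lower one (-1.59 ± 0.31; log2, SE). All 3 adipocyte markers tested were higher in tumors, with summed CPM of 0.307 to 39.2 against 0.0399 to 4.36 in vehicles, and 2 of them, Adipoq and Plin1, are in the PPARγ list. Their part was not tested. Of 10 FXR targets 6 were lower and 2 higher, and of 12 retinoid genes 7 were lower and 2 higher. Between tumors and uninvolved liver, 1235 of 16362 genes passed as higher and 1726 as lower. Of 10 PPARγ targets 3 were higher, among them Adipoq, the adipokine of fat cells (4.14 ± 1.19, from 0.11 to 1.93 CPM), and Cd36, the fatty acid carrier (1.08 ± 0.32; log2, SE). The SD of Adipoq in tumors was 2.95 CPM. Both tumor comparisons let 10 PPARγ targets and 3 adipocyte markers through the filter, against 8 and 1 in uninvolved against low-risk liver. Genes let in through the tumors can hardly pass as lower, so these counts lean toward higher. Of 3 adipocyte markers, Adipoq among them, 2 were higher, with summed CPM of 0.307 to 39.2 in tumors and 0.307 to 7.24 in uninvolved livers, and their part was not tested. 0 of 18 PPARα, 0 of 10 FXR and 0 of 12 retinoid genes passed there with edgeR.

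**Figure D5:**
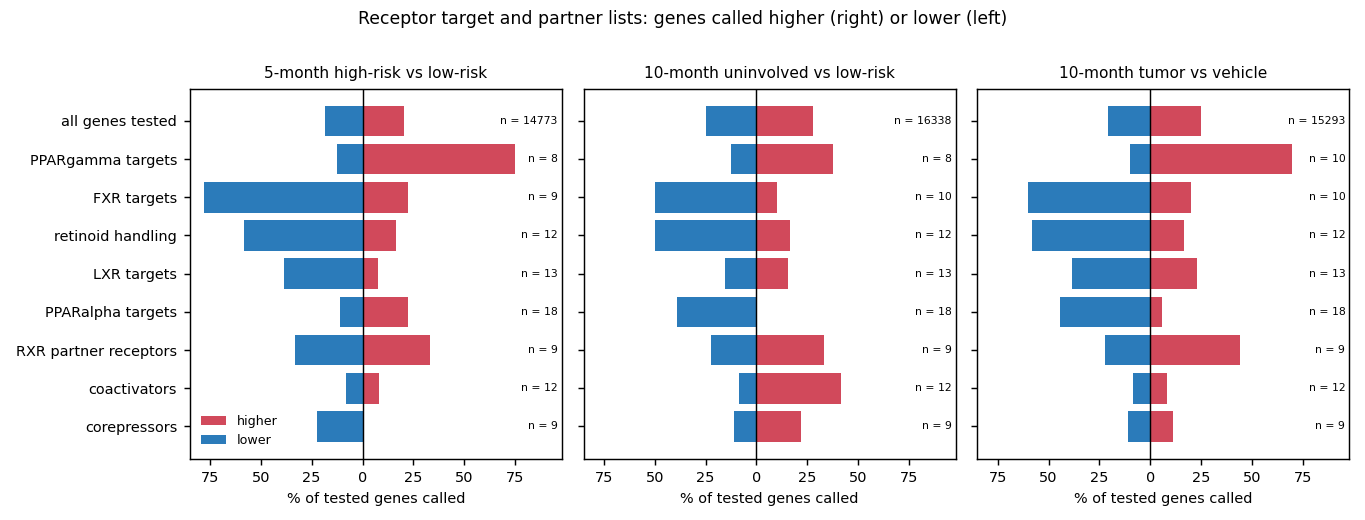
Share of the tested genes of each list that passed an adjusted p of 0.05 (edgeR) as higher (to the right) or lower (to the left), beside all genes, in 3 comparisons. FXR targets and retinoid genes lean left in the 5-month comparison (7 of 9 and 7 of 12 lower), and PPARγ targets lean right (6 of 8 higher). The filter on low counts may favor calls of PPARγ targets as higher.

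Markers of liver cell types moved with these differences. In 5-month high-risk against low-risk livers 4 of 7 hepatocyte markers passed as lower (median -0.56), with sums of 67690 to 177300 CPM against 89300 to 179100. All genes passed as higher or lower in the shares given above (3005 and 2740 of 14773 here). Of 10 stellate and fibroblast markers 8 were higher and 1 lower (sums of 603.2 to 1558 against 340.9 to 685.0 CPM), 4 of 6 cholangiocyte markers were higher (33.2 to 351.7 against 27.3 to 233.3 CPM) and all 8 proliferation markers were higher (31.5 to 284.7 against 7.20 to 46.2 CPM). In uninvolved against low-risk livers of 10 months 4 of 7 hepatocyte markers were lower (75140 to 105900 against 120300 to 129000 CPM), 7 of 10 stellate markers higher and 1 lower (640.2 to 866.6 against 399.6 to 565.5 CPM), all 6 cholangiocyte markers higher (106.3 to 212.5 against 37.4 to 59.9 CPM) and all 8 proliferation markers higher (15.1 to 102.5 against 5.86 to 13.6 CPM). T cell markers were higher for 3 of 5 with 1 lower at 5 months and for 4 of 5 at 10 months, and of 10 macrophage markers 4 were higher and 2 lower at 5 months and 3 higher and 6 lower at 10 months. In tumors against vehicles 5 of 7 hepatocyte markers were lower (75610 to 125400 against 128400 to 147500 CPM) and all 4 erythrocyte markers were lower (median -0.93). Higher there were 6 of 10 stellate markers with 1 lower (494.6 to 870.6 against 310.5 to 541.5 CPM), all 6 cholangiocyte markers (146.6 to 769.0 against 38.1 to 54.2 CPM), all 8 proliferation markers (13.5 to 162.2 against 4.82 to 19.1 CPM) and 3 of 5 T cell markers, while 3 of 10 macrophage markers passed in each direction. Of the 6 cholangiocyte markers, 5 passed the filter on low counts at 3 weeks and among vehicles across ages. A marker let in through high-risk, uninvolved or tumor tissue can hardly pass as lower, so such counts may lean toward higher. No marker of these lists was at 0 in all samples of a group. Their part in the receptor differences was not tested.

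Over the 9 group means, Pparg, Ppard and Nr1h4 spanned at least 1 on the log2 scale, as 26.5% of 12338 genes did. Genes of the most similar pattern were found by the root mean square difference of centred log2 group means. For Nr1h4 these were Met, the receptor of hepatocyte growth factor (0.08), Fermt2 (0.08) and AI464131 (0.08). Met ran from 95.3 CPM in 5-month high-risk livers to 199.5 CPM in 10-month vehicles, the groups that were also lowest and highest for Nr1h4 (67.9 and 153.2 CPM). For Ppard they were Sall1 (0.15), Zbtb16 (0.20) and Aph1c (0.21), all 3 highest in 3-week vehicles and lowest in 10-month low-risk livers. For Pparg they were Serpinb8 (0.28), Tm4sf1 (0.32) and Fam129b (0.32), with means highest in tumors. The 9 means share libraries and ages, and likeness over 9 points is a description only.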

How the data were processed

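Stranded total RNA libraries (75, from liver and tumors) were read from a table of whole-number counts per gene. The submitters' processing notes name Trim Galore (a read trimmer), HISAT2 (an aligner), featureCounts (a read counter) and the build mm10 without their settings, and the deposited file's name says that the authors adjusted the counts with ComBat-seq. The strand setting, annotation release and adjusted groups are not given in the sources used here, so adjusted counts may carry less batch spread than the libraries had. If the adjustment was given the risk groups, differences between groups may have been kept more than those between batches. This was not tested. No column was left unused (0), and all 55536 gene identifiers matched GENCODE M21.

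The library pairs of 3-week vehicle mouse 3 and of uninvolved livers 3 and 6 were summed, leaving 73 samples. Counts were filtered by edgeR's filterByExpr, scaled by TMM and tested with edgeR's quasi-likelihood test (edgeR 4.0.16, limma 3.58.1, R 4.3.3), with Benjamini-Hochberg adjustment over all genes, a threshold of 0.05 and, at 5 months, batch as a covariate. DESeq2 1.42.0 was an alternative, beside other scaling, no filter, replicate blocks, batches and libraries left out. Ratios used counts plus 0.5 in permutation tests (SciPy 1.17.1, pandas 2.3.3, Python 3.11.15; figures with matplotlib 3.10.9). FPKM used merged exon lengths. Leaving libraries out of the ratios, and 5-month low-risk 24 out of all comparisons, was added after seeing the data.

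The 9 receptors are named throughout, with up to 2 genes per direction of each list (smallest adjusted p) and 3 genes of like pattern for members spanning at least 1 on the log2 scale. Members, lists and tests were chosen with earlier results of these data known. Some of the list genes this rule picks are not reported here. Of 8 hepatocyte markers 7 were in the table.

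Tumors and uninvolved livers share mouse numbers in the labels. Same-numbered samples correlated between -0.12 and 0.44, and only mouse 7 matched its own number best. On simulated data for the 5-month high-risk against low-risk comparison (14773 genes), 83 of 100 genes changed by 1.5 on the log2 scale and 50 of 100 changed by 0.75 were recovered, with 2 false calls. Fewer were recovered for tumor against uninvolved tissue (80 and 35 of 100, 16362 genes, 4 false calls) and for the interaction (68 and 20 of 100, 16084 genes, 4 false calls). Each simulation changed 200 genes and held no batch difference, while 5745 genes passed in the real 5-month high-risk against low-risk comparison. Recovery and false calls in the simulations therefore do not measure those of the reported tests.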

Additional observations from a re-analysis of the deposited data

Results flagged for a closer look

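Within groups of 4 to 10 samples, 9 receptor values stood far from the rest of their group by Dixon's criterion. Chance gives about 1 in 20 groups such a value, and 72 groups were tested. The 5-month vehicle 9, with the fewest counts, held 5 of the 9: Rxra at 164.3 CPM, Rxrb at 12.3, Nr1h2 at 12.64 and Nr1h3 at 23.91 were low, and Ppard at 15.37 was high. Rxrb was low in 5-month high-risk 15 (11.29 CPM), a library with over 10% mitochondrial counts. Rxrg was high in 5-month high-risk 1 (8.302 CPM), Pparg in 3-week TBT 5 (13.84 CPM) and Nr1h3 in 10-month vehicle 2 (115.5 CPM).

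A library of a 10-month vehicle mouse whose label reads tumor was kept out of all comparisons. It had 10.08 CPM of Ppard, above the highest 10-month vehicle (8.66 CPM).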

How the results depend on the processing

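Of the receptors' log2 fold changes under the alternatives, 1042 of 1188 kept their sign and side of the threshold, 81 that passed in neither setting changed sign, 52 no longer passed, 11 passed anew and 2 called values turned. With a replicate block over shared numbers in 5-month high-risk against vehicle livers, where mice share only a number and few mice remain, Ppara was 0.20 and Nr1h4 0.043, and of the list genes Nr0b2 was 0.13, Fabp1 0.17 and G0s2 1.17; 0 receptors and 65 genes passed. With the mouse as a replicate block, tumors against uninvolved livers gave 1920 genes for 6 mice (livers 3 and 6 separate), and 0 receptors without mice 3 and 6. The block changed no call at 3 weeks or between low-risk and vehicle livers. The causes were not tested.

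Without the filter, genes passing were 3 at 3 weeks, 1211 for high-risk against vehicle, 2172 and 1128 for vehicles of 5 months against 3 weeks and of 10 against 5 months, and 4 for the interaction, and 0 receptors passed between tumor and uninvolved tissue. DESeq2 gave 2 genes at 3 weeks, 52 and 1 for low-risk against vehicle at 5 and 10 months, 231 for the interaction, and 2 receptors and 3438 genes for vehicles of 10 against 5 months. Within batch 1, 1 receptor and 773 genes passed for high-risk against low-risk and 0 receptors and 0 genes against vehicle. Without the deviating libraries, 5 receptors passed for high-risk against vehicle, 1 gene for low-risk against vehicle, 3 receptors and 5757 genes for vehicles of 5 months against 3 weeks, and 2 receptors and 3700 genes for 10 against 5 months. Fitting only the 2 groups gave 1338 genes for high-risk against vehicle, and leaving out the batch covariate 20 for low-risk against vehicle. When the vehicle mouse with a tumor label joined the 10-month vehicles, 2 receptors passed in uninvolved (6019 genes) and in tumor tissue (4206 genes). All 10-month groups in 1 fit gave 0 receptors and 5346 genes for tumor against uninvolved. Leaving out 1 library there gave 0 to 1 receptors and 1580 (without uninvolved liver 1) to 3948 genes (without the sum of 3 and 6). Without 5-month low-risk 24, left out after seeing the data, 208 genes passed for the interaction.

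Depth limits Ppard, Pparg and Rxrg most: their lowest counts in a sample were 4, 8 and 11.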

Other observations

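The vehicle library labelled as a tumor is a single sample and allows no test, and 14.1% of its counts were mitochondrial. Its receptor levels were 264.6 CPM of Rxra, 12.35 of Rxrb, 1.41 of Rxrg, 92.93 of Ppara, 12.5 of Pparg, 14.54 of Nr1h2, 39.39 of Nr1h3 and 90.27 of Nr1h4. Among these, Pparg lay within the range of the 10-month vehicles and the other 7 lay below it.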
